A study of Homo sapiens with 8 samples.

Results

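The unfolded protein and ATF4 response was followed over 10 genes, chosen by name: XBP1, ATF4, ATF3, DDIT3, CEBPB, NUPR1, TRIB3, ASNS, HSPA5 and SESN2. Every probe annotated with 1 symbol of these genes was taken, which gave 12 of the 31741 probes on the array. ATF4 and TRIB3 had 2 probes each and the other 8 genes had 1. The samples were SH-SY5Y cells, an established human neuroblastoma line used as a model of neuronal cells, which were untreated or exposed for 24 h to 10, 50 or 100 μM maleic acid, a small dicarboxylic acid. The RNA of each dose was 1 sample, measured on 2 arrays (Human Whole Genome OneArray) as technical replicates. The spread between both arrays of a dose is therefore that of the array measurement, and cultures of the same dose were not repeated.

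Proteins that fail to fold in the endoplasmic reticulum (ER) set off the unfolded protein response through the sensors IRE1, PERK and ATF6. IRE1 splices the mRNA of XBP1 into the form that encodes an active transcription factor, and ATF6 raises XBP1 and chaperone genes such as HSPA5 (BiP), which holds unfolded chains in the ER. PERK, like the kinases that sense amino acid shortage, heme shortage or viral RNA, phosphorylates eIF2alpha, which slows translation but favours that of ATF4. ATF4 then drives genes of amino acid supply, such as ASNS, and further regulators, such as DDIT3 (CHOP), ATF3 and TRIB3. The arrays measured total mRNA of each gene, so neither the splicing of XBP1 nor the translation of ATF4 was measured here.

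The response elements through which these genes are known to be read were searched in promoter windows from RefSeq (GRCh38.p14), which span 250 bases before to 50 after a gene's start. The ER stress element, bound by ATF6, XBP1 and NF-Y, has the parts CCAAT and CCACG with 9 bases between them, and the second ER stress element has ATTGG and CCACG with 1 base between. The C/EBP-ATF element, bound by ATF4 with its partners, was searched by its core TGATGNAA. Both strands were searched. Of the 35116 windows of all genes, 0.0769% held the ER stress element, 0.0541% the second one and 3.62% the C/EBP-ATF core. A gene can have several windows and was counted where any of them matched. By gene, the shares were 0.0916%, 0.0696% and 4.46% of 27305. Among the 9 members with a window (NUPR1 had none), XBP1 and HSPA5 held the ER stress element, and ASNS and ATF3 held the C/EBP-ATF core. The elements TGACGTGG (0.729% of windows, 0.927% of genes), bound by XBP1 and ATF6, and TGACGTCA (1.85% and 2.25%), bound by CREB and ATF factors, were in 0 of the members' windows. A match is a description of the letters in the window only. Of the 17 windows of the members, 7 were at the annotated start of the gene. The 80 bases around each match are printed 5′ to 3′ on the gene's strand, with the match in capitals, to show where it lies. XBP1 lies at chr22:28800580-28800659 and HSPA5 at chr9:125241374-125241453, both on the minus strand, followed by ASNS at chr7:97872439-97872518 on the minus and ATF3 at chr1:212565177-212565256 on the plus strand.
XBP1: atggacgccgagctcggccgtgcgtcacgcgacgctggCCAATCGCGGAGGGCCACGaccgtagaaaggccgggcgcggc
HSPA5: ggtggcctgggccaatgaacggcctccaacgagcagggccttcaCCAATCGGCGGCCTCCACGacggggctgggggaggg
ASNS: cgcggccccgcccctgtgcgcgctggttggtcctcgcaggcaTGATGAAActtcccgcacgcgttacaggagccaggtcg
ATF3: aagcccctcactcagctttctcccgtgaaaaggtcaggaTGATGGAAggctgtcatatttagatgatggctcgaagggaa

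The deposited values are linear intensities that had not been brought to a common level, with array medians of 336 to 524. The span of the values differed too, since the 95th percentile was 328 and 372 times the 25th in the untreated sample and 157 to 227 times after treatment. For the values below, log2 intensities were quantile-normalized, which brings the arrays to a common distribution. A log2 fold is the mean of both arrays of a dose minus the mean of both control arrays, with a standard error (SE) from a limma fit over the 8 arrays. A difference is called beyond array noise where limma gave an adjusted p under 0.05 (Benjamini-Hochberg, over all probes). Such a call separates single RNA samples, not treatments, and the 3 doses share the same control arrays. Pearson's r over all probes (probes of an array are not independent) was 0.989 to 0.993 between both arrays of a dose and 0.979 to 0.993 between arrays of different doses. All 10 measured noradrenergic neuroblastoma markers of a list of 12 were above an intensity of 50 on every array. That level was taken as background, since the table holds none. The summed normalized level of these markers was 745486 and 762958 on the control arrays and between 638491 and 720366 on the treated ones. Of 12 markers of leukocytes, epithelium, fibroblasts and glia, 10 were measured and 7 were above background on every array, not PTPRC, CD3E and GFAP, and their summed level was between 3059 and 3253 without treatment and between 4187 and 5090 at 100 μM. The part of these shifts in the results was not tested. All 12 member probes were above it on all arrays, with deposited intensities of 171 to 49516.

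At 100 μM, CEBPB, NUPR1 and XBP1 were higher beyond array noise, by 1.63-, 1.56- and 1.43-fold, and 0 of the member probes were lower. HSPA5 and both probes of ATF4 and of TRIB3 stayed within 0.17 of the control on the log2 scale. The 3 called of 12 probes are 25%, where 8.94% of all probes were higher and 10.4% lower beyond array noise. At 50 μM, XBP1 alone of the 12 was higher beyond array noise, where 1.13% of all probes were higher and 1.17% lower. At 10 μM, 0 of the 12 were, by limma, against 1.72% of all probes higher and 1.57% lower. Of the 12, 2, XBP1 and the dim TRIB3 probe, had an unadjusted p under 0.05. The share of all probes at that unadjusted level was not counted, so this count has nothing to be set against. Since the genes were chosen with results of these arrays known, these shares are a description. The median log2 fold of the 12 probes was 0.18, 0.30 and 0.22 at 10, 50 and 100 μM, and that over all probes was −0.03, −0.02 and −0.03. At 100 μM, 0 of the 12 passed without the second control array and CEBPB alone without the first.

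The direction of most members depended on how the arrays were scaled. In the unscaled values, the median over all probes at 100 μM was −0.34, and 35.8% of all probes were lower beyond array noise. Of the 12 member probes, 10 had both arrays below both control arrays and 1 above (20.1% of all probes above). With each array scaled to a common median, the median fold of the 12 probes was −0.02. Here 3 had both arrays above the control arrays (33.5% of all probes above) and 2 below. Quantile normalization gave 7 above and 0 below, against 28.4% and 33.9% of all probes. The shares of all probes below were not counted without scaling or with median scaling. The fold moved with brightness across all probes. When probes were divided by brightness into 5 groups of equal size, the dimmest had a median of 0.73 at 100 μM with median scaling, the second 0.50, the third −0.09, the fourth −0.33 and the brightest −0.29. All 12 member probes lay in the 3 brighter groups. The part of this pattern in the members' values was not tested. NUPR1 was higher beyond array noise at 100 μM with quantile normalization, cyclic loess, median scaling and no scaling, CEBPB with the first 3 of these and XBP1 with the first 2.

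**Figure D1:**
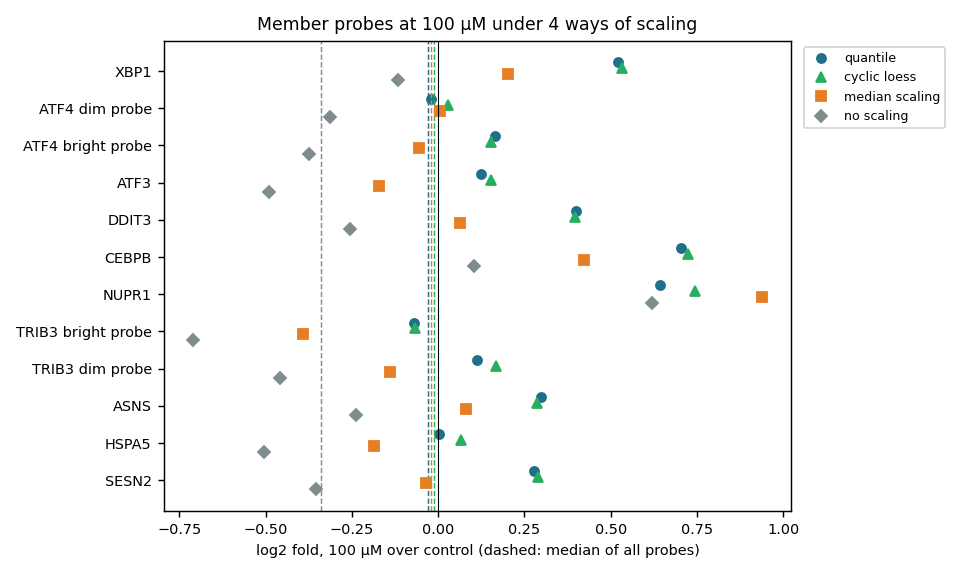
Log2 fold at 100 μM over the control for the 12 member probes under 4 ways of scaling the arrays, with the median over all probes as a dashed line for each. NUPR1 and CEBPB lie above 0 under all 4, XBP1 is at −0.12 without scaling, and the bright TRIB3 probe lies below 0 under all 4.

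XBP1, the transcription factor spliced by IRE1, had higher values at every dose, beyond array noise at 50 and 100 μM. Its log2 intensities were 12.05 and 12.15 without maleic acid, 12.60 and 12.55 with 10 μM, 12.63 and 12.66 with 50 μM, and 12.66 and 12.58 with 100 μM. All 6 treated arrays lay above both control arrays, and the treated doses overlapped with each other. The log2 fold was 0.48 (SE 0.093, adjusted p = 0.0501 from limma) at 10 μM, 0.55 (SE 0.093, adjusted p = 0.0441 from limma) at 50 μM and 0.52 (SE 0.093, adjusted p = 0.015 from limma) at 100 μM. The step from 10 to 50 μM was 0.07 and that from 50 to 100 μM −0.03, each within its SE of 0.093, so the means lay level from the lowest dose on. Of all probes, 0.00315% were higher and 0.0063% lower beyond array noise in the step from 10 to 50 μM. The call at 100 μM was lost without either control array or the first array of that dose, and that at 50 μM without any 1 array except the first at 100 μM. In the deposited intensities, XBP1 was at 5568 and 5833 without maleic acid and at 5065 and 5455 with 100 μM. The log2 fold at 100 μM was thus −0.12 without scaling and 0.20 with median scaling, neither beyond array noise, where the brightest group of probes, in which XBP1 lies, had medians of −0.60 and −0.29.

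HSPA5, the chaperone of the ER whose promoter carries the same element, did not follow XBP1 on its 1 probe. Its log2 intensities were 10.02 and 10.12 without maleic acid, 9.91 and 10.15 with 10 μM, 10.30 and 10.14 with 50 μM, and 10.16 and 9.99 with 100 μM. The groups at 10 and 100 μM overlapped with the control, and both arrays at 50 μM were above it. The log2 fold at 100 μM was 0.00377 (SE 0.13). With median scaling it was −0.19, not beyond array noise. Without scaling it was −0.50 at 100 μM and −0.57 at 10 μM, both lower beyond array noise. The fourth brightness group, in which HSPA5 lies, had medians of −0.33 with median scaling and −0.65 without scaling at 100 μM. A ratio of 2 probes on the same array does not depend on a scale factor of that array, and it shows only whether both changed unequally. The ratio of the deposited intensities of XBP1 to HSPA5 was 4.34 and 4.35 without maleic acid, 6.15 and 5.33 with 10 μM, 5.01 and 5.6 with 50 μM, and 5.48 and 5.9 with 100 μM. All 6 treated arrays were above both control arrays in this ratio, which on the log2 scale was 0.40, 0.29 and 0.39 above the control at the 3 doses. XBP1 lay in a brighter group than HSPA5, and the part of brightness in the ratio was not tested. How well the 1 probe of HSPA5 reads its mRNA was not tested either.

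CEBPB, a C/EBP factor of stress and inflammation that pairs with ATF4, differed from XBP1 in its profile. Its log2 intensities were 10.50 and 10.45 without maleic acid, 10.60 and 10.56 with 10 μM, 10.50 and 10.58 with 50 μM, and 11.09 and 11.27 with 100 μM. Both arrays at 100 μM were above the other 6. The log2 fold was 0.10 and 0.06 (SE 0.10 for each) at 10 and 50 μM and 0.70 (SE 0.10, adjusted p = 0.00907 from limma) at 100 μM. The step from 50 to 100 μM was 0.64 (SE 0.10), with an adjusted p of 0.0736 from limma, and was not beyond array noise, where 0.246% of all probes were higher and 0.0662% lower in that step. The call at 100 μM was lost without the second control array. The ratio of CEBPB to HSPA5, probes of the same brightness group, was 1.46 and 1.29 without maleic acid, 1.14 to 1.58 over the 4 arrays at 10 and 50 μM, and 1.86 and 2.36 with 100 μM. With median scaling CEBPB had a log2 fold of 0.42 at 100 μM, beyond array noise, and without scaling 0.10, which was not.

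NUPR1, a small chromatin protein induced by many stresses and a known target of ATF4, rose at 100 μM and had intermediate values at the lower doses. Its log2 intensities were 7.52 and 7.51 without maleic acid, 7.66 and 8.06 with 10 μM, 7.96 and 7.76 with 50 μM, and 8.23 and 8.09 with 100 μM. All 6 treated arrays were above both control arrays, those at 10 and 50 μM overlapped, and both at 100 μM were the highest of the 8. The log2 fold was 0.34 at both 10 and 50 μM (SE 0.15, adjusted p = 0.213 and 0.204 from limma) and 0.64 (SE 0.15, adjusted p = 0.0329 from limma) at 100 μM. The call held without either array at 10 μM and was lost without any other 1 of the 8 arrays. NUPR1 was the dimmest member, with deposited intensities of 171 and 174 without maleic acid, 206 and 210 with 10 μM, 294 and 270 with 50 μM, and 255 and 276 with 100 μM. Even these unscaled values were higher on each treated array than on both control arrays, with a log2 fold of 0.62 at 100 μM. The third of the 5 brightness groups, which holds NUPR1, had a median of −0.41 in the same values, and the second, dimmer group 0.18. Quantile normalization left NUPR1 nearly unmoved at 0.64. It moved the brighter of the other probes in this group, the dim ATF4 probe, from −0.31 to −0.02. Whether the group median holds for probes as dim as NUPR1 was not tested.

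**Figure D2:**
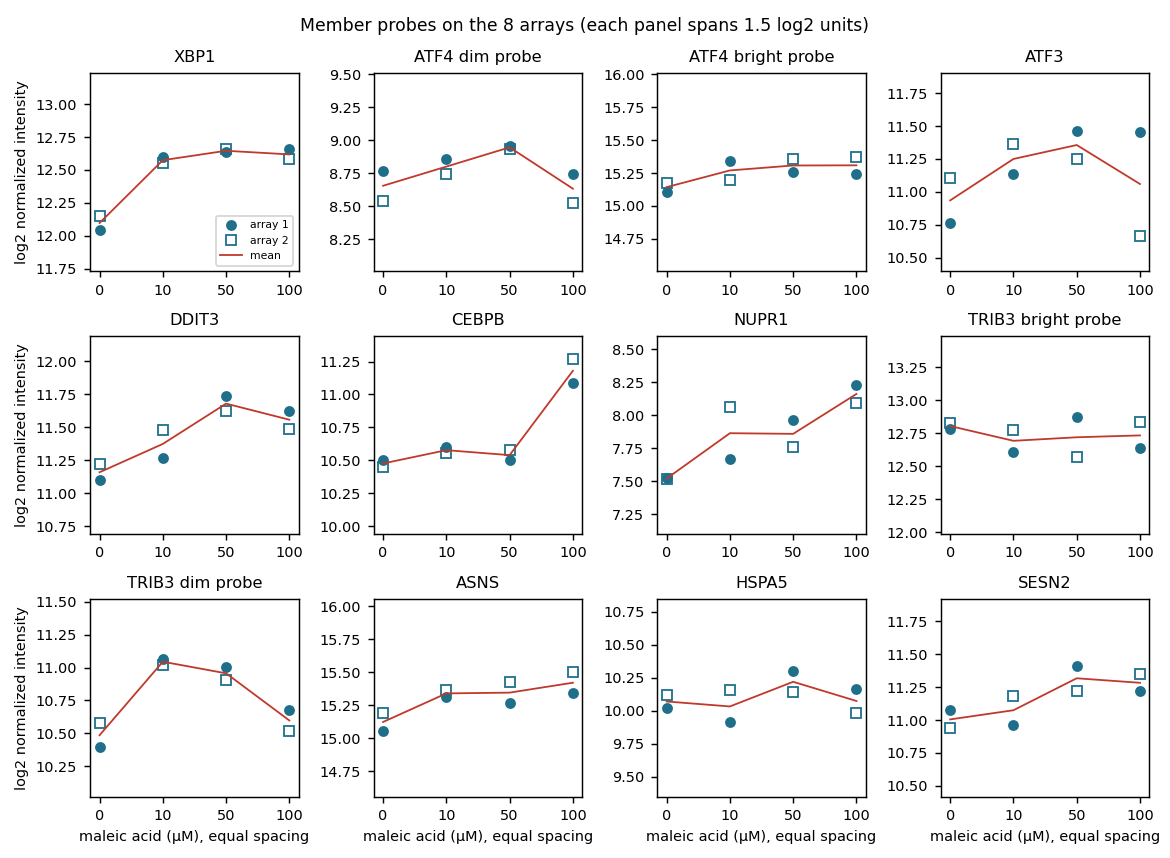
Quantile-normalized log2 intensity of the 12 member probes on both arrays of each dose (filled and open symbols), with the mean as a line, where doses are spaced equally and each panel spans 1.5 log2 units around its own mean. XBP1 steps up at 10 μM and stays level, CEBPB moves at 100 μM, and both arrays of ATF3 at 100 μM are 0.80 apart.

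ATF4 itself was nearly level in mRNA. Its bright probe had log2 intensities of 15.11 and 15.18 without maleic acid, 15.34 and 15.20 with 10 μM, 15.26 and 15.36 with 50 μM, and 15.24 and 15.37 with 100 μM. All treated arrays were above the control ones, with a log2 fold of 0.17 (SE 0.11) at 100 μM. Its dim probe had 8.77 and 8.54 without maleic acid, 8.86 and 8.74 with 10 μM, and 8.74 and 8.52 with 100 μM, where the groups overlapped and the log2 fold was −0.02 (SE 0.13). At 50 μM the dim probe was at 8.96 and 8.93, a log2 fold of 0.29 (SE 0.13). Neither probe was beyond array noise at any dose.

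DDIT3 (CHOP), a C/EBP factor that promotes cell death under lasting ER stress, had higher values that did not pass the threshold. Its log2 intensities were 11.10 and 11.22 without maleic acid, 11.27 and 11.48 with 10 μM, 11.74 and 11.62 with 50 μM, and 11.62 and 11.49 with 100 μM. All 6 treated arrays were above both control arrays. The log2 fold was 0.21 (SE 0.12), 0.52 (SE 0.12, adjusted p = 0.0644 from limma) and 0.40 (SE 0.12, adjusted p = 0.0616 from limma) at the 3 doses. It was beyond array noise at 50 and 100 μM with an offset of 50, a floor of 32 or a filter on dim probes. With median scaling its log2 folds were −0.05, 0.21 and 0.06 at 10, 50 and 100 μM, none beyond array noise. Without scaling they were −0.44, 0.28 and −0.26, of which that at 10 μM was lower beyond array noise. The ratio to HSPA5, of the same brightness group, was also above both control arrays on all 6 treated arrays, by 0.25 on the log2 scale at 100 μM.

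ATF3, an early stress factor of the ATF family, had the widest spread between arrays. Its log2 intensities were 10.77 and 11.11 without maleic acid, 11.14 and 11.36 with 10 μM, 11.46 and 11.25 with 50 μM, and 11.46 and 10.66 with 100 μM. The gap of 0.80 between both arrays at 100 μM was the widest of all member probes and doses, where the median gap was 0.14. The log2 fold at 100 μM of 0.12 (SE 0.27) was −0.28 without the first array of that dose and 0.52 without the second.

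TRIB3, a pseudokinase induced by ATF4 and CHOP that feeds back on them, differed between its probes. The dim probe had log2 intensities of 10.39 and 10.58 without maleic acid, 11.07 and 11.02 with 10 μM, 11.00 and 10.91 with 50 μM, and 10.68 and 10.52 with 100 μM. It was thus high at the middle doses, with log2 folds of 0.56 (SE 0.11, adjusted p = 0.054 from limma) and 0.47 (SE 0.11, adjusted p = 0.069 from limma), and overlapped with the control at 100 μM (0.11, SE 0.11). The bright probe had 12.78 and 12.83 without maleic acid, 12.61 and 12.77 with 10 μM, 12.87 and 12.57 with 50 μM, and 12.64 and 12.83 with 100 μM. Its log2 folds were −0.11, −0.09 and −0.07 (SE 0.14 for each) at 10, 50 and 100 μM. With median scaling they were −0.38, −0.38 and −0.39, none beyond array noise. Without scaling they were −0.76, −0.31 and −0.71, of which those at 10 and 100 μM were lower beyond array noise. At 100 μM the brightest group of probes, in which this probe lies, had medians of −0.29 with median scaling and −0.60 without scaling. The ratio of the dim to the bright probe in the deposited values was 0.183 and 0.204 without maleic acid, 0.348 and 0.29 with 10 μM, 0.273 and 0.317 with 50 μM, and 0.264 and 0.202 with 100 μM. On every array at 10 and 50 μM this ratio was above both control arrays. It does not depend on a scale factor of an array. At 100 μM the first array was above both control arrays and the second lay between them. The bright probe lay in a brighter group than the dim one, and the part of brightness in this ratio was not tested.

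ASNS, which makes asparagine and is a classic target of ATF4, had log2 intensities of 15.05 and 15.19 without maleic acid, 15.31 and 15.37 with 10 μM, 15.26 and 15.42 with 50 μM, and 15.34 and 15.50 with 100 μM. All treated arrays were above the control, with log2 folds of 0.22, 0.22 and 0.30 (SE 0.11 for each), and an adjusted p of 0.116 from limma at 100 μM. SESN2, a sestrin that restrains mTORC1 under stress, had log2 intensities of 11.07 and 10.94 without maleic acid, 10.96 and 11.18 with 10 μM, 11.41 and 11.22 with 50 μM, and 11.22 and 11.35 with 100 μM. Its arrays at 10 μM overlapped with the control and those at 50 and 100 μM were above, with log2 folds of 0.31 and 0.28 (SE 0.13 for each). Neither gene was beyond array noise at any dose.

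Over the 12 probes, both arrays lay above both control arrays for 8 at 10 μM, 10 at 50 μM and 7 at 100 μM, and below for 1, 0 and 0. Of all probes, 26.7%, 29.3% and 28.4% lay above at these doses and 32.9%, 33.3% and 33.9% below. The means followed the order of dose upward for 2 of the 12, the bright ATF4 probe and ASNS, and downward for 0, against 9% upward and 9.27% downward of all probes. A linear trend across the ranked doses (limma, on the mean of both arrays of each dose) passed an adjusted p of 0.05 for 0 of the 12 and for 0% of all probes in either direction. The lowest adjusted p of the members was 0.228, for NUPR1, with a slope of 0.19 per dose step (SE 0.064), and 2 of them, NUPR1 and CEBPB, had an unadjusted p under 0.05, where 9.55% of all probes had such a p upward and 7.82% downward.

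**Figure D3:**
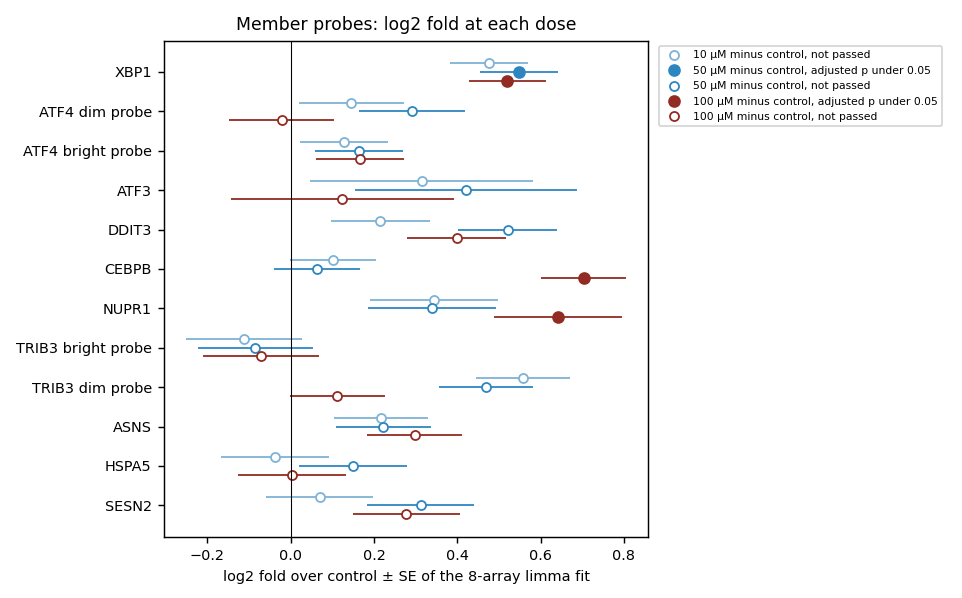
Log2 fold over the control of the 12 member probes at 10, 50 and 100 μM, with bars for the SE of the limma fit over 8 arrays and filled points for an adjusted p under 0.05. XBP1 is near 0.5 at all 3 doses, CEBPB and NUPR1 are filled at 100 μM, and HSPA5 and the bright TRIB3 probe stay near 0.

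The other genes of the response were read from 8 lists with 95 genes, of which 90 were measured, as the mean over the probes of each gene. Of these 90, 7 were higher at 100 μM, 8 were lower and 75 did not pass. These shares of 7.78% and 8.89% lay near those over all genes, 8.35% higher and 11.9% lower. The split shifted with scaling, to 5 higher and 19 lower with median scaling and to 1 and 52 without scaling. It was 1 and 2 without the first control array, 0 and 3 without the second, 1 and 4 without the first array at 100 μM, and 4 higher without the second at 50 μM. At 10 μM, 1 was higher and 2 lower (1.68% and 2.11% of all genes), and at 50 μM 2 and 2 (1.6% and 1.89%). The median log2 fold of the 90 at 100 μM was 0.02, where that of all genes was −0.03.

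Of the 8 sensors and proteases of ER stress, 1 was higher and 1 lower at 100 μM, against 8.35% and 11.9% of all genes. CREB3L1, a membrane-bound factor cut like ATF6, had a log2 fold of 0.87 (SE 0.13). Its 1 probe was dim, with mean intensities of 81, 121, 99 and 148 at 0, 10, 50 and 100 μM. The fold was 0.59 with an offset of 50 and 1.49 with median scaling. MBTPS2, the site-2 protease that releases ATF6, had −0.75 (SE 0.19), with −1.02 and −0.47 on its probes. ERN1 (IRE1), EIF2AK3 (PERK) and ATF6, the sensors themselves, had 0.16 (SE 0.15), −0.17 (SE 0.11) and −0.15 (SE 0.12) and did not pass. Of the 9 kinases, phosphatase subunits and other genes of translation control, 0 passed by limma in either direction, against 8.35% and 11.9% of all genes. At an unadjusted p under 0.05, 0 were higher and 2 lower, and the share of all genes at that level was not counted. The probes of DNAJC3, one of these genes, parted, with −0.73 on the dim one, which passed, and 0.15 on the bright one. PPP1R15A (GADD34), which brings phosphatase to eIF2alpha and is itself induced by ATF4, had −0.04 (SE 0.13).

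Among the targets of ATF4 in amino acid supply, 4 genes of 3 lists were higher beyond array noise at 100 μM and 0 lower. Of all genes, 8.35% were higher and 11.9% lower. Only SLC6A9 of the 4 passed with median scaling. Without scaling 0 of the 4 passed, and SHMT2, WARS1 and AARS1 had −0.16, −0.13 and −0.20. For SHMT2, WARS1 and SLC6A9, 1 of 2 probes passed. Of 11 genes of amino acid synthesis and one-carbon metabolism, SHMT2, a mitochondrial serine hydroxymethyltransferase, was higher with 0.43 (SE 0.086), 0 were lower and the median was 0.14. PHGDH and PYCR1, of serine and proline synthesis, had 0.35 and 0.43 and PSAT1 0.03, none of which passed. Of 8 amino acid transporters, the glycine transporter SLC6A9 was higher with 0.37 (SE 0.10) and 0 were lower. SLC7A11, the cystine carrier, had 1 probe under background on all 8 arrays and 1 above it on all, which had −0.29 (SE 0.34) and did not pass. Of 9 measured aminoacyl-tRNA synthetases, WARS1 and AARS1, which charge tRNA with tryptophan and alanine, were higher with 0.53 (SE 0.088) and 0.43 (SE 0.094), and 0 were lower.

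The 14 further regulators downstream of ATF4 and CHOP had a median of −0.25 at 100 μM. Beyond array noise, 0 were higher (8.35% of all genes) and 4 lower (11.9% of all genes). These were ATF5, a factor of the mitochondrial stress response, with −0.50 (SE 0.087), the death receptor TNFRSF10B with −0.48 (SE 0.095), the ER oxidase ERO1A with −0.43 (SE 0.093) and KLHL24 with −0.38 (SE 0.093). The probes of TNFRSF10B parted, with −0.98, −0.59 and 0.13 from the dimmest to the brightest, and of those of KLHL24 1 of 3 passed. The dim probe of ERO1A had −0.51, which passed, and the bright one −0.36, which did not. CHAC1, which degrades glutathione and is induced by ATF4, had 0.33 (SE 0.11, adjusted p = 0.082 from limma), and DDIT4, an inhibitor of mTORC1, 0.11 (SE 0.13).

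Of 15 measured ER chaperones and folding enzymes, 2 were higher and 2 lower at 100 μM, against 8.35% and 11.9% of all genes. The calcium-binding chaperone CALR had 0.47 (SE 0.092) and HYOU1, a large chaperone of the HSP70 family, 0.58 (SE 0.15). The oxidoreductase PDIA3, which works with CALR, had −0.65 (SE 0.084), and the prolyl isomerase FKBP14 −0.81 (SE 0.15). PDIA3 and FKBP14 had 1 dim probe each, with mean intensities of 191 and 244 without maleic acid and 122 and 139 at 100 μM. How well these probes read their mRNA was not tested. With median scaling 0 of these 4 passed, with CALR at 0.15, HYOU1 at 0.24, PDIA3 at −0.31 and FKBP14 at −0.57, and without scaling FKBP14 alone did. Of 16 genes of ER-associated degradation and export, 0 were higher, and UFM1, a ubiquitin-like modifier, was lower with −0.65 (SE 0.08). SEL1L and HERPUD1, of the degradation complex, had 0.40 (SE 0.12) and 0.32 (SE 0.14), which did not pass. The probes of SEL1L parted, with 1.09 (which passed), 0.32 and −0.20.

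**Figure D4:**
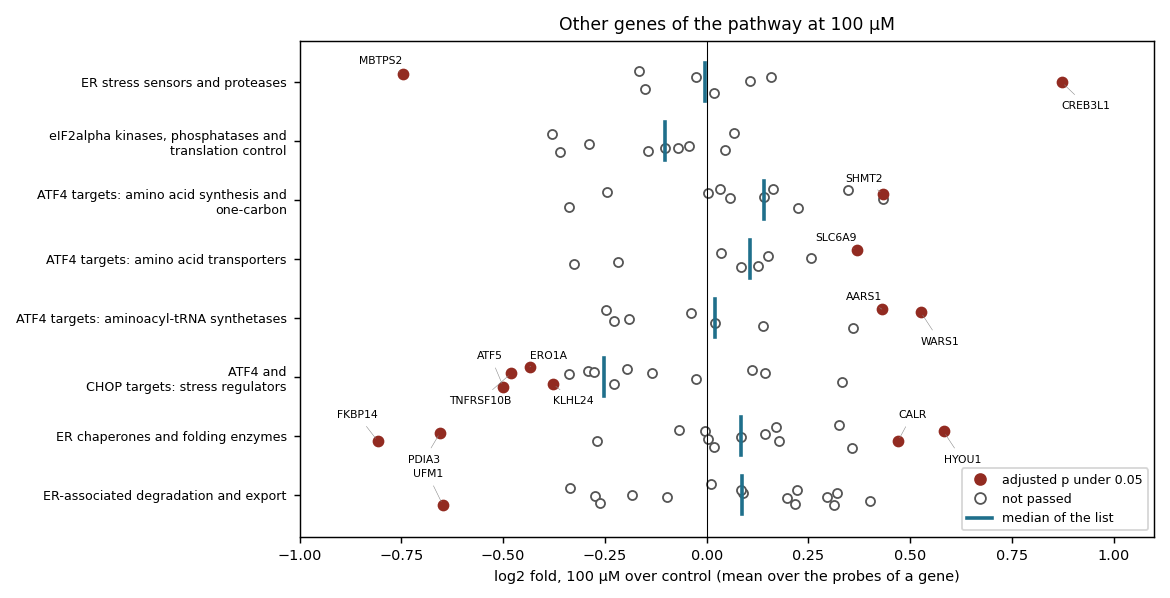
Log2 fold at 100 μM over the control for the 90 other measured genes of the response in 8 lists, as the mean over the probes of each gene, with filled points for an adjusted p under 0.05 and a bar for the median of each list. Most genes lie between −0.5 and 0.5, 7 are filled to the right and 8 to the left, 4 of the latter among the regulators downstream of ATF4 and CHOP.

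The genes of these lists were also read by the elements in their promoter windows, as a description with no test. Of the 73 genes with a window, 7 held either form, namely CALR, CANX, CRELD2, HERPUD1, HYOU1, PDIA6 and SDF2L1. All 7 had a log2 fold above 0 at 100 μM, from 0.14 to 0.58 with a median of 0.33, where the other genes with a window had a median of 0.01. This was not so at the lower doses. At 10 μM CANX, SDF2L1 and CRELD2 had −0.26, −0.07 and −0.06, at 50 μM CANX and CRELD2 had −0.12 and −0.15, and the rest were above 0. Above 0 were 49 of the 90 listed genes and 46.4% of all genes. The members showed no such gap, with a median of 0.26 for XBP1 and HSPA5 and of 0.28 for those without the element. CALR and HYOU1 were beyond array noise and the other 5 were not, and without scaling CALR and HYOU1 had −0.17 and −0.08. The C/EBP-ATF core was in 16 of the 73 genes, with a median of 0.06 and a range of −0.34 to 0.43 (FGF21, in this count, was under background on all arrays). The windows of CALR, HYOU1 and AARS1 are printed as those of the genes beyond array noise that hold a match, in capitals. CALR, at chr19:12938359-12938438 on the plus strand, holds the ER stress element read from the other strand. HYOU1, at chr11:119057266-119057405 on the minus strand, holds the second ER stress element at 2 places, the first of which overlaps with TGACGTGG. AARS1, at chr16:70289657-70289736 on the minus strand, holds the C/EBP-ATF core read from the other strand.
CALR: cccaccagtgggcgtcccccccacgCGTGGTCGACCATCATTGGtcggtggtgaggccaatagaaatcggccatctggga
HYOU1: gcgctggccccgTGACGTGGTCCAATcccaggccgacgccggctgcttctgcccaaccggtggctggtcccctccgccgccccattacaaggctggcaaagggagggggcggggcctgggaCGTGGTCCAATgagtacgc
AARS1: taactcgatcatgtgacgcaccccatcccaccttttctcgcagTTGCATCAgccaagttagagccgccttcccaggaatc

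The probes whose values over the 8 arrays were most like those of the called members were found by Pearson's r among 8820 probes with 1 symbol and dose means at least 0.5 apart. For CEBPB they were CRTAC1 (r = 0.982), TMEM242 (r = 0.977) and IGFN1 (r = 0.972). For NUPR1 they were FCGBP (r = 0.986), CTNND2 (r = 0.98) and NFAT5 (r = 0.979). For XBP1 they were KIF15 (r = 0.982), PSG1 (r = 0.979) and ALKAL1 (r = 0.973), and the control means of these last 3, at 3.27, 3.47 and 4.48 on the log2 scale, were below an intensity of 50. The arrays of a dose are technical replicates, so these r rest on 4 RNA samples.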

How the data were processed

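The 8 arrays carried 1 dye (Cy5), and each of the 4 doses had 1 RNA sample on 2 of them. The deposited unit is a linear spot intensity. These are what the authors obtained from GenePix and Rosetta Resolver after removal of flagged spots. Their methods name a median scaling. The sources used here do not say how background was handled. The number of arrays limits the precision.

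From the deposited intensities, a floor of 1, the log2 transform and quantile normalization followed, in limma 3.58.1 in R 4.3.3. A mean per dose was fitted over the 8 arrays, two-sided, with Benjamini-Hochberg adjustment over all 31741 probes, or over 18255 genes for the mean over the probes of a gene. The trend used the ranked doses and the mean of both arrays of a dose. Python 3.11.15 was used for gene names, promoter windows and plots. Of the 24658 probes with 1 symbol, 2177 symbols were updated through a synonym in RefSeq (GRCh38.p14).

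The genes named are all probes of the 10 members, up to 4 called genes of each further list, and the 3 probes most like XBP1, CEBPB and NUPR1. Members and lists were chosen with earlier results of these data known. The within-array ratios, the brightness groups and the genes named with values that did not pass were chosen after the values had been seen. The fits were tested on simulated data. The alternatives were other normalizations, an offset, another floor, a filter on dim probes, the replicate number as a block and each array left out.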

Additional observations from a re-analysis of the deposited data

How the results depend on the processing

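The 8 arrays hold 1 RNA sample per dose, so these limits concern array noise and scaling only. NUPR1, the dimmest member, lay above the level of 50 taken as background on every array. Its normalized intensities of 183 to 300 were in the range of EPCAM, an epithelial marker, with 238 to 350. Over the 12 probes, 3 were higher and 0 lower beyond array noise at 100 μM. These were 2 and 0 with median scaling and 1 and 3 without scaling, and 0 to 3 higher with each array left out in turn. The 3 lower without scaling were HSPA5 and both probes of TRIB3. At 50 μM, 1 was higher, against 0 without scaling, 3 with an offset of 50, a floor of 32 or a filter on dim probes, and 0 to 1 with an array left out. At 10 μM, 0 were higher, against 2 with cyclic loess, with quantile normalization of linear values, with the offset, the floor or the filter, and 1 with median scaling, and 0 were lower, against 4 without scaling. Of the wider lists, 7 were higher and 8 lower at 100 μM, against 19 lower with median scaling, 1 higher and 52 lower without scaling and 11 higher with the offset, and 0 to 5 higher and 2 to 9 lower with an array left out. The dose trend passed for 0 of the 12 probes in each of the 15 alternatives in which it was run, which leave out the replicate block.

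Log2 folds changed sign as follows, and the cause was not tested. With cyclic loess, the dim ATF4 probe had 0.030 at 100 μM and HSPA5 0.037 at 10 μM. With median scaling at 100 μM, the dim and bright ATF4 probes had 0.0043 and −0.056, ATF3 −0.17, the dim TRIB3 probe −0.14, HSPA5 −0.19 and SESN2 −0.037. At 50 μM it gave ATF4 (bright) −0.078, CEBPB −0.19, ASNS −0.021 and HSPA5 −0.034, and at 10 μM ATF4 (bright) −0.050, DDIT3 −0.054, CEBPB −0.12 and SESN2 −0.18. Without scaling at 100 μM, XBP1 had −0.12, ATF4 (bright) −0.37, ATF3 −0.49, DDIT3 −0.26, TRIB3 (dim) −0.46, ASNS −0.24, HSPA5 −0.50, SESN2 −0.36, SHMT2 −0.16, WARS1 −0.13, AARS1 −0.20, HYOU1 −0.079 and CALR −0.17. At 50 μM it gave ATF4 (bright) −0.0075 and CEBPB −0.12. At 10 μM it gave XBP1 −0.17, ATF4 −0.23 (dim) and −0.43 (bright), ATF3 −0.32, DDIT3 −0.44, CEBPB −0.50, TRIB3 (dim) −0.044, ASNS −0.35 and SESN2 −0.57. With an array left out, the range was −0.13 to 0.090 for ATF4 (dim), −0.28 to 0.52 for ATF3, −0.084 to 0.092 for HSPA5 and −0.17 to 0.027 for TRIB3 (bright) at 100 μM, −0.24 to 0.066 for TRIB3 (bright) at 50 μM, and −0.16 to 0.084 for HSPA5 and −0.042 to 0.18 for SESN2 at 10 μM.

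The arrays share replicate numbers, which did not pair them, since deviations of same-numbered arrays correlated at −0.08 to 0.11. With the number as a replicate block, 2 members (CEBPB and XBP1) were higher at 100 μM and 0 at 50 μM, and over all probes 2310 were higher and 2385 lower at 100 μM, against 2837 and 3311 without the block.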
